A study of Sus scrofa with 8 samples.

Results

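Calcineurin, NFAT and RCAN genes were examined in bulk RNA-seq of the pig right ventricle under pressure overload. The genes were chosen by name: the catalytic subunits PPP3CA, PPP3CB and PPP3CC, the regulatory subunit PPP3R1, the transcription factors NFATC2, NFATC3 and NFATC4, and the calcineurin regulators RCAN1, RCAN2 and RCAN3. Of these 10 genes, 9 had a gene model among the 31908 in the count table, and all 9 passed the filter on low counts that left 13697 genes for testing. PPP3CC had no gene model of its own that could be matched and is not analysed here as a gene.

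Calcineurin is a phosphatase built from a catalytic and a regulatory subunit, and calcium-bound calmodulin switches it on. It removes phosphate groups from the cytoplasmic NFAT factors, which then enter the nucleus, where they work with GATA and MEF2 factors, and kinases send them back out. RCAN proteins bind the catalytic subunit and regulate it, and RCAN1 is itself a known NFAT target, through an alternative promoter inside the gene, so its transcript is often read as a reporter of the pathway. In heart muscle the pathway is known for its part in growth under mechanical load.

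Tissue came from the free wall of the right ventricle, with 1 library from each of 4 banded and 4 control pigs, all Yorkshire Cross. Banded animals were castrated males operated at 4.5 ± 0.6 weeks of age and 6.4 ± 1.3 kg, whose main pulmonary artery was constricted to a peak right ventricular pressure of roughly 30 to 40 mmHg. Control pigs were of similar age and weight, were housed for 8 weeks and carry the treatment label None. The labels used here name no sham operation, no sex for the controls and no interval between banding and sampling. The pigs carry no transgene or other genetic change that the labels name, and the load was set by 1 operation in young, growing animals.

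Depth was 31033679 to 34183338 counts per library, of which transcripts of the mitochondrial genome took 30.5% to 43.9%. Levels are given as CPM, a gene's count scaled to a common library size after TMM normalisation, and a gene was called changed at a Benjamini-Hochberg adjusted p under 0.05 in edgeR's quasi-likelihood test over all tested genes. By that rule 954 genes (6.97%) were called, 475 higher (3.47%) and 479 lower (3.5%) in banded animals; with library size as the only scaling the split was 303 higher and 508 lower. Ventricular muscle markers were abundant, with TNNT2, the cardiac troponin T gene, at 6600 to 10164 CPM in every library. The summed level of 6 cardiomyocyte markers was 19238 to 25211 CPM in controls, against 28650 to 36363 CPM in banded animals, and that of 6 macrophage and monocyte markers, of which LYZ was at 0 throughout, was 313 to 509 CPM and 528 to 974 CPM. Both sums were higher in every banded library than in any control, but the cardiomyocyte list was split. MYL2, the ventricular myosin light chain gene, rose from a control mean of 9264 CPM to a banded mean of 17465 CPM (adjusted p = 0.0113). It was the only marker of the list that passed. TNNT2 and ACTN2 had positive differences, and TNNI3, RYR2 and MYBPC3 negative ones (-1.25, -0.74 and -0.33 on the log2 scale). None of these 5 markers passed. Unlike the others, the TNNI3 model was low, at 12.6 to 20.6 CPM in controls and 2.44 to 11.3 CPM in banded animals. Whether that model captures the whole gene was not tested. Without MYL2 the sum was 11587 to 14999 CPM in controls, against 14333 to 16675 CPM in the banded group, with overlap. None of the macrophage and monocyte markers passed singly, and the endothelial, fibroblast, smooth muscle and T cell sums overlapped between groups. Of the fibroblast markers, PDGFRA alone was called, as lower in banded animals (log2 fold change -0.49, adjusted p = 0.0480). In bulk tissue fewer cells of a type and less RNA per cell cannot be told apart, and the part of these marker differences in the results below was not tested. Banded 1 stood apart with 292 CPM over 4 adipocyte markers (15.6 CPM or less in the other banded libraries, 12.2 to 32.2 CPM in controls). Banded 4 stood apart with 1781 CPM over 3 red blood cell markers (173 CPM or less in the other banded libraries, 74.5 to 321 CPM in controls).

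None of the 9 genes was called by edgeR, against a background of 6.97% of all tested genes. At an unadjusted p under 0.05 there were 3, RCAN1 and RCAN2 with positive and PPP3CA with negative differences, where the background share was 23.8%. DESeq2 called RCAN1 (1 of 9, background 12.5%), as did limma-voom with sample quality weights (background 9.79%) and edgeR without robust estimation (background 7%). The median log2 fold change over the 9 genes was 0.02, beside 0.02 over all tested genes, with 5 positive and 4 negative values. RCAN1 was the only gene of the 9 whose banded and control animals did not overlap; across all tested genes 7.66% lay above control without overlap, 8.2% lay below, and 15.9% lay apart in either direction.

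**Figure D1:**
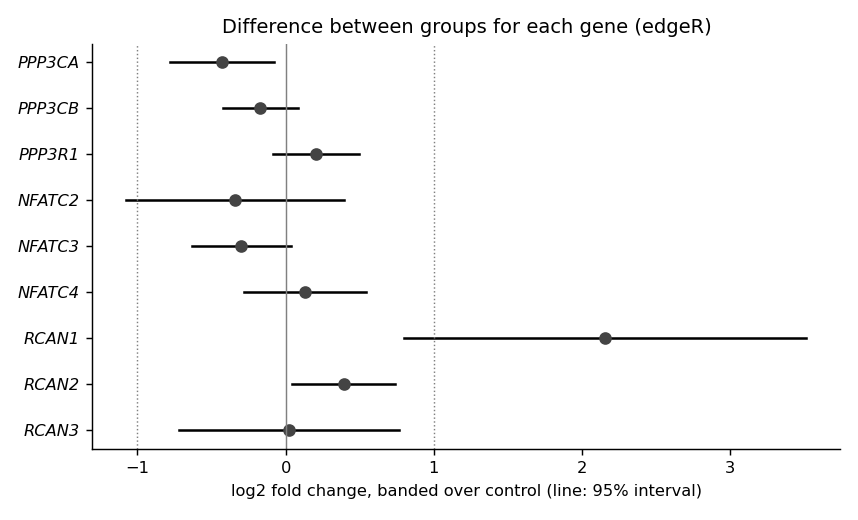
Log2 fold change of banded over control for each of the 9 genes (points) with its 95% interval (lines) from edgeR; dotted lines mark a 2-fold difference either way. RCAN1 lies at 2.16 with the widest interval, and the intervals of 7 of the 9 genes stay inside the dotted lines.

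The catalytic subunit PPP3CA (Sscrofa11.1, chromosome 8, 119428743 to 119754650, plus strand, 17 exons) encodes the alpha form, a main calcineurin of the heart. Its level was 22.2, 19.6, 27.1 and 25.2 CPM in controls 1 to 4. In banded animals 1 to 4 it was 16.6, 18.1, 21.3 and 14.0 CPM. Banded animals 1, 2 and 4 lay below every control, and banded 3 lay above control 2, so the groups overlapped. The mean was 23.5 ± 3.32 CPM for controls and 17.5 ± 3.05 CPM in banded animals (SD, n = 4 each). The log2 fold change was -0.43 ± 0.16 (SE; 95% interval -0.78 to -0.08), with an adjusted p of 0.134, and did not pass. PPP3CA was called lower with 1 surrogate variable as a covariate (-0.53, adjusted p = 0.0482, background 7.6%). Of the 5208 bases of its model 780 (15.0%) also fall on the RefSeq gene LOC110261963, and 4821 lie in the RefSeq span of PPP3CA, so its level may hold reads of another gene. DESeq2 without banded 3 also called it lower (-0.53, adjusted p = 0.0410, in a fit that called 10.1% of its genes). In the authors' deposited table, whose values match a DESeq2 fit without banded 3, PPP3CA is at -0.53 ± 0.18 with an adjusted p of 0.0348.

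PPP3CB, the beta catalytic subunit (chromosome 14, 76248849 to 76305328, minus strand), was measured at 27.6, 25.9, 25.7 and 30.0 CPM in control animals, and 25.2, 22.2, 23.9 and 25.9 CPM in the banded group. Loss of this subunit is known to blunt cardiac growth in mice. The 2 groups met at about 26 CPM, where banded 4 reached the lower controls. Banded over control, the log2 fold change was -0.17 ± 0.12 (95% interval -0.43 to 0.09, adjusted p = 0.415). This was among the most even genes of the set, with a coefficient of variation of 7.3% in controls and 6.77% in banded animals. A stretch of 1302 bases (11.3% of the model) is shared on the same strand with the model of MSS51, where reads of the 2 genes cannot be told apart.

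PPP3R1, the calcium-binding regulatory subunit (chromosome 3, 74000400 to 74071340, plus strand), stood at 19.7, 21.6, 21.3 and 24.5 CPM in controls. Banded animals gave 28.0, 24.1, 26.9 and 21.3 CPM. Banded 1 and 3 were above every control and banded 4 was level with control 3. The difference was 0.20 ± 0.13 on the log2 scale (95% interval -0.09 to 0.49, adjusted p = 0.386). Its point estimate was positive where those of both catalytic subunits were negative, and none of the 3 passed the test. Of the 9079 bases of the PPP3R1 model, 5883 lie in the RefSeq span of the gene.

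The third catalytic subunit, PPP3CC, is placed by RefSeq at chromosome 14, 6711789 to 6799318 on the same build. That span lies inside the SLC39A14 gene model of the count table (6639206 to 6803670, plus strand), which has 31 merged exons, 20 of them, with 2598 bases, within the PPP3CC span. The model was measured at 109, 108, 86.2 and 106 CPM in controls, against 118, 85.8, 119 and 106 CPM in banded animals, a log2 fold change of 0.07 ± 0.14 (adjusted p = 0.823). SLC39A14 encodes a metal ion transporter, and reads of the 2 genes cannot be separated, so these values stand for neither gene alone.

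NFATC3 (chromosome 6, 28617445 to 28872058, plus strand) was the most abundant of the 3 NFAT models by CPM, at 49.9, 53.0, 42.6 and 47.0 CPM in controls. Banded animals gave 50.02, 37.3, 30.98 and 38.3 CPM. Banded 1 lay within the control range and banded 2, 3 and 4 lay below every control. The log2 fold change was -0.30 ± 0.15 (95% interval -0.63 to 0.04, adjusted p = 0.261). NFATC3 is a factor through which calcineurin acts in mouse heart growth, but its pig model runs past the gene. Of 19281 bases, 14044 lie in the RefSeq span of NFATC3, and exons also fall on DUS2, ESRP2, PLA2G15 and SLC7A6. This overlap, like the other RefSeq overlaps given here, was found without regard to strand, while the counts are specific to strand. The value may therefore hold reads of up to 5 genes, and how many was not tested.

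NFATC4 (chromosome 7, 74918982 to 74931348, minus strand) was at 18.8, 13.1, 14.4 and 15.0 CPM in controls, against 12.9, 14.1, 21.9 and 18.1 CPM in banded animals. It encodes the NFAT factor first tied to cardiac hypertrophy through its binding to GATA4. Banded 3 was the highest and banded 1 the lowest of all 8 libraries, so the banded group spanned the whole control range. The log2 fold change was 0.13 ± 0.19 (95% interval -0.28 to 0.55, adjusted p = 0.720). Without banded 3 it was -0.02, on the other side of 0.

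NFATC2 (chromosome 17, 52743570 to 52906821, minus strand), a factor best known from lymphocytes and also present in heart muscle, was the least abundant NFAT factor. Controls gave 4.17, 7.22, 5.37 and 3.43 CPM, and banded animals 4.26, 6.17, 3.46 and 2.05 CPM. Control 2 and banded 2 were the highest of their groups and banded 4 the lowest of all. On the log2 scale the difference was -0.34 ± 0.34 (95% interval -1.07 to 0.40, adjusted p = 0.585). Of the 9 genes only NFATC2 and RCAN1 had an interval that reached a 2-fold difference. Levels of T and NK cell markers summed to 18.0 to 22.4 CPM in controls, against 14.6 to 26.8 CPM in banded animals, also with the lowest sum in banded 4; the part of such cells in the NFATC2 level was not tested.

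RCAN1 (chromosome 13, 198102098 to 198205629, minus strand, 9 exons) showed the widest difference of the set, and its level varied most among animals. Controls 1 to 4 were at 28.4, 26.2, 68.4 and 34.6 CPM. Banded animals 1 to 4 were at 79.9, 75.4, 339 and 209 CPM. All 4 banded animals lay above all 4 controls, but narrowly for banded 1 and 2, which were close to control 3, and widely for banded 3 and 4. The mean was 39.4 ± 19.7 CPM for controls and 176 ± 125 CPM in banded animals (SD, n = 4 each), with coefficients of variation of 49.9% and 71.2%.

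The log2 fold change of RCAN1 was 2.16 ± 0.58 (SE), a 4.45-fold difference with a 95% interval of 1.74 to 11.4-fold, and its adjusted p of 0.0714 in edgeR did not pass. DESeq2 gave the same size with an adjusted p of 0.00859, and limma-voom with quality weights gave 1.59 with 0.0378. Without banded 3, edgeR gave 1.62 (adjusted p = 0.124) and DESeq2 1.62 (adjusted p = 0.0386, in a fit that called 10.1% of its genes). Leaving out control 3 gave 2.56 (adjusted p = 0.0793). The difference was positive in every one of the 20 alternatives, from 1.59 to 2.56, with an adjusted p between 0.00859 and 0.287. The counts cover the whole gene, so transcripts from the NFAT-responsive promoter and from the upstream promoter are not separated. Of the model's 3348 bases, 475 also fall on the uncharacterised RefSeq gene LOC106508034.

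The authors' deposited table lists all 9 genes and calls 2 of them, RCAN1 as higher (1.62 ± 0.56, adjusted p = 0.0378) and PPP3CA as lower, where 10.6% of its 14099 genes with an adjusted p are called. A DESeq2 fit to 7 libraries, without banded 3, gave log2 fold changes within 0.01 of that table for 100% of 16302 genes, and a fit to all 8 libraries for 9.16%. Leaving out any other library gave 4.01% to 12.38%. The table's values therefore match a comparison of 4 controls with banded 1, 2 and 4, the set in which RCAN1 lacks its highest library.

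RCAN2 (chromosome 7, 40980523 to 41227021, minus strand), the RCAN gene known for high expression in heart, muscle and brain, was at 115, 96.6, 91.2 and 98.8 CPM in controls. Banded animals gave 151, 99.7, 155 and 121 CPM. Banded 1, 3 and 4 lay above every control and banded 2 lay within the control range. The mean was 100 ± 10.3 CPM for controls and 132 ± 26.2 CPM in banded animals, and the log2 fold change of 0.39 ± 0.16 (95% interval 0.04 to 0.74) had an unadjusted p of 0.0306 and an adjusted p of 0.161. A stretch of 346 bases, 12.7% of the model, is shared with ENPP5 on the same strand.

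RCAN3 (chromosome 6, 82186368 to 82226130, plus strand) was low, at 2.64, 1.62, 1.52 and 2.87 CPM in controls, against 1.36, 2.87, 2.01 and 2.54 CPM in banded animals, from 43 to 101 counts per library. The 2 groups covered the same range. Its log2 fold change was 0.02 ± 0.34 (95% interval -0.72 to 0.76, adjusted p = 0.977), and it took either sign when single libraries were left out (-0.14 to 0.20) and was -0.036 with library size alone. RCAN3, the least studied RCAN gene, shares 810 bases (27.2% of its model) with a neighbouring model named NCMAP.

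**Figure D2:**
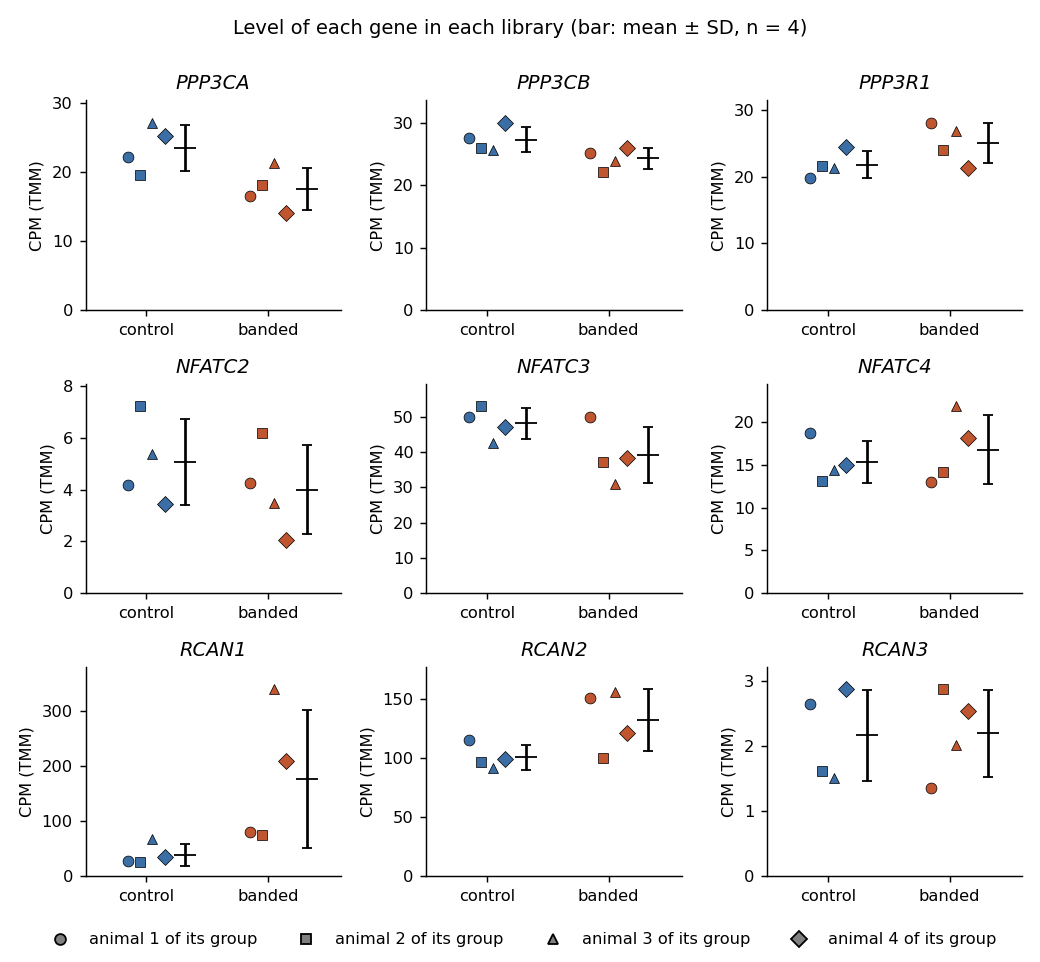
Level in CPM (linear axes from 0, scaled per panel) of each of the 9 genes in each of the 4 control (blue) and 4 banded (orange) animals, with the mean ± SD beside each group. RCAN1 is the only panel in which no banded animal reaches down to a control, and its banded points run from 75.4 to 339 CPM.

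Levels of different genes were compared as CPM per kilobase of gene model. In controls RCAN2 was the most abundant of the 9 genes, at 36.8 ± 3.79 CPM per kb, and its lowest control was above the highest control value of RCAN1 (11.8 ± 5.88 CPM per kb). PPP3CA came next, at 4.52 ± 0.64 CPM per kb, and its range was clear of those on either side. Its place above PPP3CB rests on model length (5208 bases against 11533). By CPM alone PPP3CB was above PPP3CA in every library but control 3. NFATC4 (2.67 ± 0.43), NFATC3 (2.496 ± 0.23), PPP3R1 (2.40 ± 0.22) and PPP3CB (2.37 ± 0.17 CPM per kb) had overlapping ranges. Compared within each library, NFATC4 was above PPP3CB in all 8, narrowly in controls 2 and 4. The other pairs of these genes changed order among the controls. RCAN3 (0.728 ± 0.233) and NFATC2 (0.656 ± 0.215 CPM per kb) were lowest and overlapped each other. Per length, RCAN2 and RCAN1 were above PPP3CA and PPP3CB in each of the 8 libraries.

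In banded animals RCAN1 had the highest mean, at 52.5 ± 37.3 CPM per kb, followed by RCAN2 at 48.2 ± 9.61, and the ranges of the 2 genes overlapped. PPP3CA was at 3.36 ± 0.59 and PPP3CB at 2.10 ± 0.14 CPM per kb. The length-scaled value of NFATC3 divides by a model that also spans other genes. The PPP3R1 model runs past the RefSeq span of its gene, and parts of the PPP3CB, RCAN2 and RCAN3 models are shared with neighbouring models. Lengths of the models do not say which isoforms were present.

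Within each library, the make-up of the RCAN transcripts was described by the share of each gene in their length-scaled sum. RCAN1 made up 16.4%, 17.9%, 37.6% and 21.8% in controls. In banded animals its share was 30.0%, 37.5%, 63.7% and 58.0%. RCAN2 held the largest share in all 4 controls and in banded 1 and 2, while RCAN1 held it in banded 3 and 4, so only these 2 libraries had more RCAN1 than RCAN2. The share in control 3 lay between those of banded 1 and 2 and those of banded 3 and 4, and the groups overlapped.

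The length-scaled sum of the 3 RCAN genes was 7.74, 7.28, 7.31 and 6.39 times that of PPP3CA and PPP3CB in controls. In banded animals it was 14.8, 11.11, 25.8 and 21.8 times. This ratio joined differences of opposite sign in RCAN1, RCAN2 and PPP3CA, was even among controls (7.18 ± 0.57) and spread widely among banded animals (18.4 ± 6.62), and the groups did not overlap. It was formed after the values were seen and is given with no test. PPP3CA made up 64.0%, 62.6%, 70.1% and 65.0% of the length-scaled sum of PPP3CA and PPP3CB in controls and 59.3%, 64.4%, 66.4% and 54.5% in banded animals, with overlap. The size of these shares rests on the lengths of both models.

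**Figure D3:**
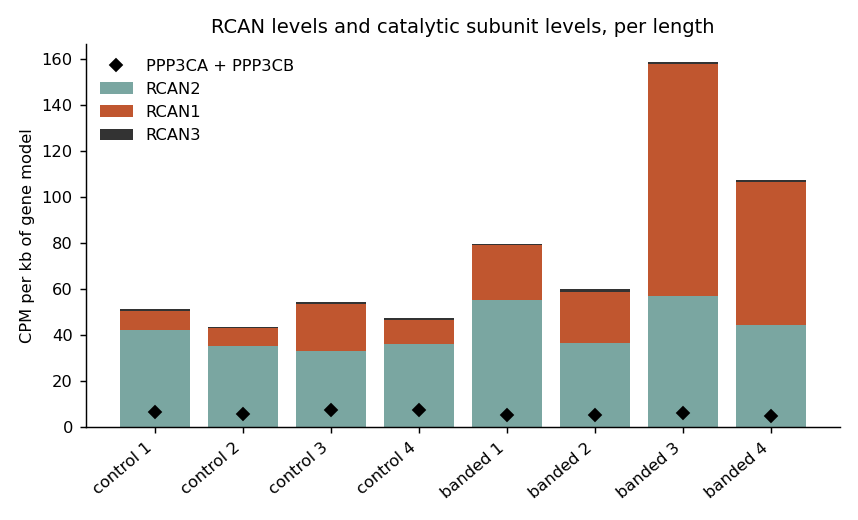
Length-scaled level (CPM per kb of gene model) of RCAN2, RCAN1 and RCAN3 stacked for each library, with the sum of PPP3CA and PPP3CB as black diamonds. The stacks are 6.39 to 7.74 times the diamonds in controls and 11.11 to 25.8 times in banded animals, and RCAN1 exceeds RCAN2 only in banded 3 and 4.

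Other genes of the pathway were read from 7 lists of 71 names, of which 66 had a gene model and 65 were tested; TRPC6 stands in 2 of the lists. Of the 65, 12 were called (18.5%, where the background is 6.97%), 4 higher and 8 lower in banded animals, and 53 did not pass. Their median log2 fold change was -0.08. Because the lists were chosen with earlier results of these data known, the share called is no test of the pathway. DYRK2 and HOMER2 passed in all 20 alternatives; the other calls were lost in 1 to 11 of them. The number called was 4 without control 1, without control 2 or without control 3, and 6 without banded 4.

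Of the 2 further NFAT genes, NFAT5 fell and NFATC1 did not pass. NFAT5, a factor of the osmotic stress response that lacks the calcineurin-binding region of its relatives, was at 31.7, 25.6, 27.5 and 20.7 CPM in controls, against 19.4, 9.75, 17.4 and 10.4 CPM in banded animals (log2 fold change -0.89 ± 0.23, adjusted p = 0.0447). All banded animals lay below all controls, by a narrow margin between banded 1 and control 4. The call was lost without control 1, 2 or 3 or banded 2 or 4 (adjusted p 0.0842 to 0.1298) and with 1 surrogate variable (0.0557). NFATC1, named here after its values were seen, was at 21.4 to 23.8 CPM in controls, against 12.2 to 19.6 CPM in banded animals, without overlap, at -0.40 ± 0.16 (adjusted p = 0.153).

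Among 10 tested inhibitors, anchors and binding partners of calcineurin, MYOZ2 and CIB1 rose, CABIN1 fell and 7 did not pass. MYOZ2, a Z-disc protein of the calsarcin family that binds calcineurin and is known to restrain it, was at 2195, 1945, 1947 and 2470 CPM in controls, against 3836, 2976, 4663 and 4092 CPM in banded animals. The groups were well apart, and the log2 fold change was 0.86 ± 0.17 (adjusted p = 0.0144). The call was lost without control 1, 2 or 3 (adjusted p 0.0527 to 0.0594), and exons of the model also fall on SEC24D.

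CIB1, a calcium-binding protein that anchors calcineurin at the surface membrane of heart muscle cells, was at 21.1, 19.8, 18.0 and 24.3 CPM in controls. It was at 28.3, 27.2, 28.5 and 31.5 CPM in banded animals, all above the controls, with a log2 fold change of 0.47 ± 0.13 (adjusted p = 0.0487). That call was close to the threshold and was lost in 11 of 20 alternatives, which include leaving out any library but control 4 (adjusted p 0.0556 to 0.153).

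CABIN1, a nuclear protein that binds and inhibits calcineurin and represses MEF2, was at 53.5, 49.1, 47.7 and 37.7 CPM in controls, against 33.8, 30.8, 23.3 and 32.0 CPM in banded animals. The groups did not overlap, with the smallest gap between control 4 and banded 1, and the log2 fold change was -0.65 ± 0.15 (adjusted p = 0.0287). It was lost without control 1, 2 or 3 or banded 2 (adjusted p 0.0539 to 0.0943). The negative regulators of calcineurin therefore did not share 1 direction: MYOZ2 rose, CABIN1 fell, and RCAN1 and RCAN2 had positive differences that did not pass.

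LMCD1, a LIM-domain protein reported to act through calcineurin in heart growth, was picked out after its values were seen. It was at 19.2, 26.7, 33.4 and 72.5 CPM in controls and at 30.2, 32.8, 762 and 21.3 CPM in banded animals. Banded 3, which also had the highest RCAN1, stood alone, and the other 3 banded animals lay within the control range. The log2 fold change was 2.48 ± 1.36 (adjusted p = 0.328) with banded 3 and -0.43 (adjusted p = 0.650) without it.

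None of the 3 tested calmodulin genes passed. CALM2, the most abundant per length, was at 167 to 255 CPM in controls, against 186 to 312 CPM in banded animals, with a log2 fold change of 0.26 ± 0.19 (adjusted p = 0.432).

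Of 14 genes for NFAT kinases, nuclear export and Homer scaffolds, HOMER2 rose, DYRK2 fell and 12 did not pass. HOMER2, a scaffold protein reported to bind NFAT in competition with calcineurin, was at 91.6, 83.6, 77.0 and 118 CPM in controls. It was at 351, 255, 523 and 416 CPM in banded animals, the lowest of them more than 2-fold above the highest control. Its log2 fold change was 2.06 ± 0.22 (adjusted p = 0.000527), close in size to that of RCAN1 with an error less than that of RCAN1 (0.58).

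DYRK2, a kinase that can phosphorylate NFAT and so keep it out of the nucleus, was at 64.9, 76.9, 61.4 and 70.7 CPM in controls. Banded animals were at 37.5, 31.9, 32.0 and 29.0 CPM, all far below the lowest control. Its log2 fold change was -1.07 ± 0.13 (adjusted p = 0.000926). In the same list GSK3B, DYRK1A and the casein kinase genes did not pass.

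Of 14 tested genes for calcium entry and release, ITPR1, ITPR2 and CACNA1C fell and 11 did not pass. ITPR2, the main inositol trisphosphate receptor of ventricular muscle, which releases calcium from internal stores, was at 20.6, 24.0, 18.9 and 21.0 CPM in controls, against 11.9, 12.6, 10.3 and 10.3 CPM in banded animals (-0.90 ± 0.14, adjusted p = 0.00394). Its relative ITPR1 was at 25.7 to 33.3 CPM in controls, against 17.6 to 23.2 CPM in banded animals (-0.55 ± 0.14, adjusted p = 0.0368), without overlap. The ITPR2 call was lost only in the test against a 1.5-fold change (adjusted p = 0.195). That of ITPR1 was lost in 9 alternatives, among them leaving out any library but banded 3 (0.0501 to 0.121).

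CACNA1C, the pore of the L-type calcium channel, was at 20.2, 28.0, 21.4 and 18.5 CPM in controls, against 15.1, 16.3, 13.7 and 13.1 CPM in banded animals (-0.60 ± 0.16, adjusted p = 0.0427). Its gene model (chromosome 5, 69418543 to 69448455) covers 6.93% of the RefSeq span of the gene (69016954 to 69448428), so the value rests on 1 end of it. The call was lost without any 1 library but control 4 (adjusted p 0.0546 to 0.131), with upper-quartile scaling (0.0508), with library size alone (0.0679) and with 1 surrogate variable (0.0627). ORAI1, the store-operated channel and the most abundant of the list per length, was at 0.04 ± 0.13 (adjusted p = 0.875).

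Of 14 other calcineurin substrates and partner factors, MEF2A and PPP1R1A fell and 12 did not pass. A negative difference was seen in 11 of the 14, where 6635 of all 13697 tested genes had one. MEF2A, a muscle transcription factor that works with NFAT, was at 81.7, 83.4, 75.5 and 68.9 CPM in controls, against 49.96, 63.5, 37.9 and 51.8 CPM in banded animals (-0.61 ± 0.16, adjusted p = 0.0392). PPP1R1A, a phosphatase inhibitor that calcineurin can dephosphorylate, was at 21.1, 14.6, 17.3 and 17.8 CPM in controls, against 10.9, 3.13, 7.57 and 5.80 CPM in banded animals (-1.37 ± 0.31, adjusted p = 0.0282). In both genes the groups did not overlap. The MEF2A call was lost in 9 alternatives, among them leaving out control 1, 2 or 3 or banded 1, 3 or 4 (adjusted p 0.0514 to 0.117). The PPP1R1A call was lost in 8, among them leaving out any control or banded 3 or 4 (0.0539 to 0.0819). MEF2D, the most abundant per length, had a log2 fold change of -0.14 ± 0.18 (adjusted p = 0.700), which was 0.02 without banded 2.

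Of 9 tested genes reported as NFAT-driven, ACTA1 rose and 8 did not pass. ACTA1, the skeletal alpha-actin gene that is part of the fetal programme of heart muscle, was at 6983, 5167, 6062 and 6289 CPM in controls, against 15245, 10794, 21317 and 12376 CPM in banded animals. Every banded animal was above every control, and the log2 fold change was 1.29 ± 0.22 (adjusted p = 0.00688). It passed in all alternatives but the test against a 1.5-fold change (adjusted p = 0.0696), and exons of its model also fall on CCSAP.

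The natriuretic peptide genes NPPA and NPPB share 1 gene model, named here after its values were seen, at 67.6, 31.2, 30.1 and 14.1 CPM in controls, against 170, 110, 975 and 291 CPM in banded animals. As for RCAN1, banded 3 was highest and banded 4 next, and no banded animal overlapped a control (3.43 ± 0.85, adjusted p = 0.0603). TNNI1, the slow skeletal troponin I of the immature heart, also named after its values were seen, was at 56.8, 48.6, 7.502 and 2.08 CPM in controls, against 1.05 to 3.51 CPM in banded animals (-3.82 ± 1.10, adjusted p = 0.0916). Controls 1 and 2 alone were high. The genes reported as NFAT-driven thus held values of both signs, with 6 positive and 3 negative differences.

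**Figure D4:**
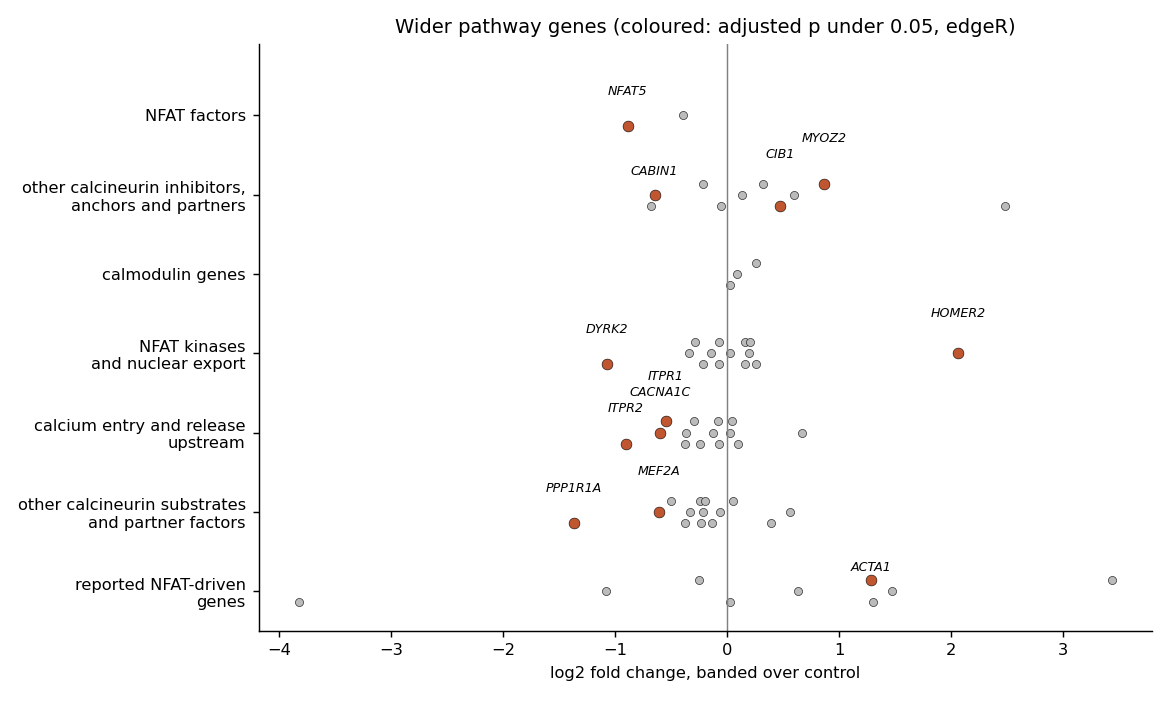
Log2 fold change of banded over control for the 65 tested genes of 7 lists (rows, with TRPC6 in 2 of them; vertical offsets within a row are only for legibility). Orange points are the 12 genes called by edgeR, named above their row at their own fold change, from PPP1R1A at -1.37 to HOMER2 at 2.06, and grey points did not pass.

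**Figure D5:**
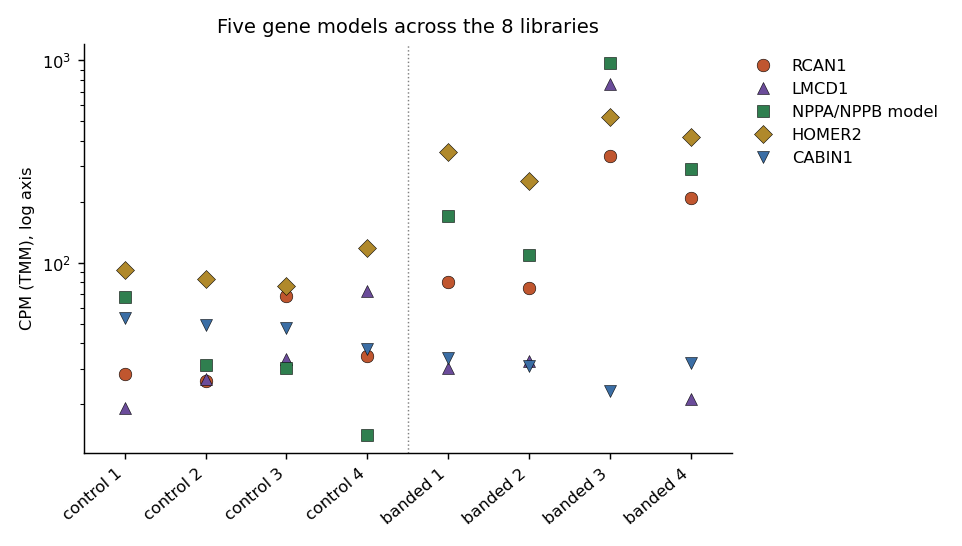
Level (CPM, log axis) of RCAN1, LMCD1, the NPPA/NPPB model, HOMER2 and CABIN1 in each of the 8 libraries. Banded 3 is the highest library for RCAN1 (339), LMCD1 (762), the NPPA/NPPB model (975) and HOMER2 (523), and the lowest for CABIN1 (23.3).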

How the data were processed

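Per the labels' protocols, total RNA came from frozen, pulverised ventricle, 1 library per animal; separate animals make n = 4 per group. Read pairs were counted by the authors with featureCounts 1.6.2, per the file headers (mapping quality of at least 10, strand setting 2) on Ensembl release 106 of Sscrofa11.1, in a command naming 24 libraries, of which 8 were analysed here. The deposited counts are whole numbers and not normalised; the model length in bases is the deposited sum of merged exons. The submitters' processing notes also name Trimmomatic, HISAT2, Subread and DESeq2, with no versions given in the sources used here. The authors' deposited table holds the log2 fold change (control over banded, sign turned here) and SE. It also gives the deposited mean signal of normalised counts, the Wald statistic as a score, and raw and adjusted p-values.

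Genes were filtered with filterByExpr (minimum count 10, total 15), scaled by TMM and tested with edgeR 4.0.16 (quasi-likelihood, robust, two-sided) in R 4.3.3, Benjamini-Hochberg adjusted over 13697 genes. The SE is the log2 fold change over the square root of F. The level that a count of 0 allows was 0.0843 to 0.104 CPM (3 counts on the TMM scale, counting error only). In counts simulated for this comparison (13498 genes), 4.5% of 66 genes changed 1.5-fold, 56.1% of 66 changed 2-fold and 87.3% of 63 changed 4-fold were called. The other 13303 genes were left unchanged, whereas 954 genes were called in the data. Benjamini-Hochberg adjustment is stricter when few genes change, so these shares may be too low for the data. The labels give no batch or pairing.

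The genes and lists were chosen with earlier results of these data known. Named were all members and, of each further list, every called gene and the most abundant per length. Of the members, 7 were matched by the name in the deposited table. RCAN1 and PPP3R1, whose name is blank there, were matched by their identifier in a reference gene-name table. FKBP1A, PPIA, DNM1L, MYH7 and MB were not analysed here and TRPC4 was not tested. Alternatives were DESeq2 1.42.0, limma-voom (limma 3.58.1) with quality weights, 3 other scalings, no robust estimation, 1 surrogate variable (sva 3.50.0), a test against 1.5-fold, no filter, at least 50 counts in 4 libraries, and fits without mitochondrial-genome genes and without each library in turn. DESeq2 without banded 3 was added after seeing the data. It was fitted without the filterByExpr step and with another setting of DESeq2's own filter, so it gave an adjusted p for 15226 genes. The DESeq2 fit to all libraries gave one for 13630. These fits therefore differ in more than the library left out. Marker lists for adipocytes, mast, B, T and NK, Schwann, red blood, skeletal and atrial muscle cells were also read.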

Additional observations from a re-analysis of the deposited data

Results flagged for a closer look

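In 26 genes (52 groups of 4 animals), 2 groups held an animal whose gap to its nearest neighbour took more of the group's range than Dixon's 95% critical value; chance gives about 1 in 20 groups. LMCD1 in banded 3 was at 762 CPM, where the nearest banded animal was at 32.8 CPM, a gap of 0.984 of the range. ORAI1 in control 1 was at 20.3 CPM, where the nearest control was at 17.3 CPM, a gap of 0.882 of the range.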

How the results depend on the processing

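The count of genes called was 954. It was 1710 with DESeq2 (of 13630 genes), 148 against a 1.5-fold change, and 399 to 962 when single libraries were left out. DESeq2 without banded 3, fitted without the filterByExpr step, called 1534 of 15226 genes. With library size alone 37.4% of the calls were higher in banded animals, against 49.8%, and the median over all genes moved by -0.10. Of the 9 calcineurin, NFAT and RCAN genes 0 were called; DESeq2, limma-voom, edgeR without robust estimation and 1 surrogate variable called 1 each, DESeq2 without banded 3 called 2, and leaving out single libraries in edgeR called 0. RCAN1 then passed at 2.16 (DESeq2), 1.59 (limma-voom), 2.16 (no robust estimation) and 1.62 (DESeq2 without banded 3), and ran from 1.62 to 2.56 over single libraries left out. The 12 wider pathway calls became 2 against a 1.5-fold change and 4 to 11 over single libraries left out. The sign turned for RCAN3 (-0.036 with library size alone, -0.14 to 0.20 over libraries left out), NFATC4 (-0.011 with 1 surrogate variable, -0.021 with DESeq2 without banded 3, -0.022 to 0.24), LMCD1 (-0.16, -0.43, -0.43 to 3.00), ORAI1 (-0.058 with library size alone) and MEF2D (-0.25 to 0.017); the cause was not tested. PPP3CB, PPP3R1, NFATC2, NFATC3 and RCAN2 kept their direction and kept an adjusted p above 0.05 in all 20 alternatives. No paired analysis was possible because the labels give no shared replicate numbers. With 4 animals per group, most simulated 1.5-fold changes were not called, in a simulation with few changed genes. The 95% intervals of PPP3CB, PPP3R1 and NFATC4 stayed within 1.5-fold either way, and those of the other 6 genes did not.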

Other observations

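Gene profiles most like that of RCAN1 were listed after its values were seen, by Pearson's r of log2 CPM over the 8 libraries, as a description of libraries that include the group difference. They were CIAO2B, a factor of iron-sulfur protein assembly (r = 0.978), NUP54, a nuclear pore protein (0.970), and ZMAT5, a spliceosome protein (0.965). With each group's mean taken out, r was 0.964, 0.958 and 0.937. None of the 3 was called by edgeR; CIAO2B was at 14.2 to 18.2 CPM in controls and 17.3 to 29.9 CPM in banded animals, with a log2 fold change of 0.51 ± 0.18 (adjusted p = 0.109).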
